A study of Mus musculus with 9 samples.

Results

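The A_30 probes are the 15955 oligonucleotides, of 91188 distinct non-control probes on an Agilent mouse array, whose names begin with A_30_P. They were chosen by name alone, with no measured value. Each is a designed sequence of 60 bases printed at 2 spots, and the 15955 sequences are all different. The samples are stomach tissue from mice of the inbred C57 background, compared after local X-ray exposure of the stomach at 0 Gy (mock), 6 Gy or 12 Gy, given at 2 Gy per minute. All mice, mock included, were anaesthetised with ketamine at 75 mg/kg and xylazine at 10 mg/kg, and were killed on day 7. The labels used here give no age or sex and do not say whether a sample pools animals. RNA (0.2 µg per sample) was copied into Cy3-labelled cRNA and hybridised to 1 array each, with 3 arrays per group and 9 in all, and p-values measure the spread between these samples.

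Agilent has used names of this form for probes to long intergenic non-coding RNA, which are transcripts without a long reading frame, made from DNA between protein-coding genes. Many such RNAs are scarce, tissue-restricted and retained in the nucleus, and some, such as the small nucleolar RNA host Gas5, respond to growth arrest or DNA damage. X-rays break DNA and deplete dividing cells, and the stomach lining renews itself from dividing progenitors. The files themselves pair no A_30 name with a gene: each probe carries its own name in the gene column and no position. The label of a long non-coding RNA probe could therefore be checked only where a probe matched a reference sequence base for base. None of the stomach, muscle, pancreas, blood, intestine or liver marker genes listed for the tissue check was matched in that way by any probe, so the labelled tissue was not checked against its markers.

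The probes below carry the results, and in the following 3 sets every C is in capitals because the count of C turned out to vary most with detection. The first set holds 3 pairs of exact reverse complements, in which the first probe was detected on all 9 arrays and the second on none. These pairs were picked after their values were seen, as the 3 with the brightest detected member.
A_30_P01027432: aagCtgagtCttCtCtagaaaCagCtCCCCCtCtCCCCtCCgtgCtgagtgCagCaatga
A_30_P01028782: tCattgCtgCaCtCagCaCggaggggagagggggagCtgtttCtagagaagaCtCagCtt
A_30_P01021758: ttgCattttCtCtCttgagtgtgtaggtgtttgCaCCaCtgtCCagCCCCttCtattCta
A_30_P01027788: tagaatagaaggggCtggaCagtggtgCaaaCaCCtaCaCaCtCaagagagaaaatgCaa
A_30_P01030215: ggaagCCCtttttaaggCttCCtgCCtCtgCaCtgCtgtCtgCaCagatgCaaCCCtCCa
A_30_P01029061: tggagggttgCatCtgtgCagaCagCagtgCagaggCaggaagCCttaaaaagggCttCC

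The second set holds 4 probes with the smallest p at 12 Gy against mock, 2 higher and 2 lower, and A_30_P01024220, 1 of the 2 with the smallest p among those higher at 6 Gy. None of them passed the adjusted threshold.
A_30_P01017713: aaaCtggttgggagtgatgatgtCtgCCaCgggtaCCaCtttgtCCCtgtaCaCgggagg
A_30_P01023384: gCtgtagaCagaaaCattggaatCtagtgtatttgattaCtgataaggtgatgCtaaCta
A_30_P01020619: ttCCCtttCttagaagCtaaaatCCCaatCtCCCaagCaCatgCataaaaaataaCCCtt
A_30_P01026494: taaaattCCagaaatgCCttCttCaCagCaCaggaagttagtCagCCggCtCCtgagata
A_30_P01024220: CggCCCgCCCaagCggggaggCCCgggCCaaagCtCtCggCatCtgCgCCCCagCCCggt

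The third set holds 3 of the 5 brightest probes.
A_30_P01020015: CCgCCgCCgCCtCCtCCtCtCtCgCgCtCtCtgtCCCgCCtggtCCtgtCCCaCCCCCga
A_30_P01027058: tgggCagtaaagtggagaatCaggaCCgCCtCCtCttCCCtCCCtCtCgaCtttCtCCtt
A_30_P01031448: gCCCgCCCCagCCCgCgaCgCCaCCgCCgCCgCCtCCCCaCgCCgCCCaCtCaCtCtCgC

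Next comes the other probe that read higher at 6 Gy against mock, with a partner that shares 56 bases on the opposite strand. Capitals mark the shared run.
A_30_P01022610: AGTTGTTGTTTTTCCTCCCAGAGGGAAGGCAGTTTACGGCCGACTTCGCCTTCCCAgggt
A_30_P01030326: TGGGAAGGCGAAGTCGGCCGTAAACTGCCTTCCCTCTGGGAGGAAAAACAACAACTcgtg

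Capitals also mark the shared run in a same-strand pair (51 bases) and an opposite-strand pair (49 bases), both among the brightest overlapping pairs.
A_30_P01019815: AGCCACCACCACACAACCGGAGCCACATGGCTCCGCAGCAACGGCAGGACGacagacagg
A_30_P01028562: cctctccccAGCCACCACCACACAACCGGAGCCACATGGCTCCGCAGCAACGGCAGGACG
A_30_P01020276: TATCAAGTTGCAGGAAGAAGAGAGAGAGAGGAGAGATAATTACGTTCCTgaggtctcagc
A_30_P01029802: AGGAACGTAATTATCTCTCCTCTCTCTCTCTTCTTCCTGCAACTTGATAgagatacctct

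The last sequences shown at this point are the pair with the widest range over the arrays, followed by a probe of another name series that shares 37 bases with the second of them (capitals).
A_30_P01021588: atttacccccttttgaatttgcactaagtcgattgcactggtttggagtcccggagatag
A_30_P01028007: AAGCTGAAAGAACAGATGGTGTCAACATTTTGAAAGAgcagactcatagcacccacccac
mmu_4418_PI428980890: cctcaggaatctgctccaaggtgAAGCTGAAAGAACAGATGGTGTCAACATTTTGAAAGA

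Detection here means that the scanner software flagged a share of 0.5 or more of the spots of a probe as well above their local background. Among the mock arrays, 26.9%, 34.9% and 31.4% of the A_30 probes were detected (replicates 1 to 3). At 6 Gy the shares were 31.5%, 27.8% and 35.7%, and at 12 Gy 32.1%, 31.4% and 30.7%. The groups overlapped completely, with means of 31.1% ± 4.01, 31.7% ± 3.96 and 31.4% ± 0.721 (SD, n = 3 each) in order of dose. On every one of the 9 arrays the A_30 share was below that of all other non-control probes, by 5.93 ± 0.732 percentage points (SD over 9 arrays). The custom probes whose names start with mmu were detected less often still, at 22.4% to 30.5%, and the catalogue probes starting A_5 or A_6 more often, at 40.9% to 50.5%.

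Detection of a single A_30 probe was mostly all or nothing. Of the 15955 probes, 3740 (23.4%) were detected on all 9 arrays and 9487 (59.5%) on none, which left 2728 detected on 1 to 8 arrays. Over all non-control probes 27.7% were detected on all 9 arrays and 54.3% on none. A pattern that separated the doses completely was rare: 2 A_30 probes were detected on the 3 mock arrays but never after irradiation, and 1 on the 6 irradiated arrays and on no mock array. Over the whole array 76 and 34 probes did so.

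Levels are given as log2 of the processed signal relative to the 75th percentile of the array's non-control spots, so 0 is the level of that percentile. Levels of different probes depend on their sequences as well as their targets, so no order of transcript abundance is read from them. Dose comparisons used the 4798 A_30 probes (30.1%) detected on all 3 arrays of at least 1 group, beside 35.1% of all probes. Their mean levels ran from -1.85 to 11.98, with a median of 0.92. The array medians of these probes were 0.85, 0.97 and 1.01 in mock, 0.96, 0.97 and 0.97 at 6 Gy, and 0.94, 0.94 and 0.84 at 12 Gy. Mock replicate 1 and 12 Gy replicate 3 were lowest. For probes detected on all 9 arrays the duplicate spots of an array differed by a median of 0.15 log2 units, and the spread of a probe between arrays of a group had a median SD of 0.27.

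The arrays lie on 3 slides that follow dose in part: mock replicate 1 alone on slide 1, mock replicates 2 and 3 with 6 Gy replicates 1 and 2 on slide 2, and 6 Gy replicate 3 with the 12 Gy arrays on slide 3. No slide holds both mock and 12 Gy arrays.

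The share of A_30 probes detected on every array rose with the count of C, though probes with 13 or fewer C were detected too. Of A_30 probes with 7 or fewer C among their 60 bases, 7.16% were detected on all 9 arrays (76 of 1061). The share was 8.18% with 8 to 10 C, 12.6% with 11 to 13, 25.2% with 14 to 16, 47.9% with 17 to 19 and 81.1% with 20 or more (740 of 912). The count of G showed no such rise: the share was 29.2% with 7 or fewer G and 23.8% with 20 or more. It fell with A, from 72.9% of probes with 7 or fewer A to 9.78% of those with 20 or more, and with T it lay between 21.1% and 35.9%.

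A probe detected on all 9 arrays held on average 16.3 C and 12.9 G, and a probe detected on none 11.9 C and 13.4 G, while T averaged 16.8 in both. By the sum of G and C the share detected on all 9 arrays rose from 3.85% with up to 20 to 72.8% with 37 or more. By the longest run of a single base the share went from 22.6% with a run of at most 3 to 27.2% with a run of 6 or more.

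The rise with C was not limited to A_30. Among all other probes the share detected on all 9 arrays went from 15.8% with 7 or fewer C to 55.3% with 17 to 19 and 78.6% with 20 or more. Below 20 C each of these shares was above that of A_30 probes with the same count. A_30 probes hold more C than the rest, with a mean of 13.2 against 12.1. When the other probes were weighted to the C counts of A_30, the gap in detection per array widened to 10.4 ± 0.70 percentage points (SD over 9 arrays; 9.21 to 11.7). The bins of C were set after the detection values were seen. Base count and the transcripts the probes stand for were not separated here, and what part either has in detection was not tested.

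The shares by C lay close together in the 3 groups. With 20 or more C, 87.6% of A_30 probes were detected per array in mock, 87.4% at 6 Gy and 87.1% at 12 Gy. With 7 or fewer the shares were 11.8%, 12.8% and 13.4%.

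The 5 brightest A_30 probes held 21 to 38 C, which is given as a description only. A_30_P01020015 (34 C) was at 11.95, 11.91 and 11.85 in mock, 12.01, 12.03 and 12.21 at 6 Gy, and 12.01, 12.08 and 11.74 at 12 Gy. It shares 57 bases with a catalogue probe on the same strand, and that probe was also detected on 9 arrays, with levels from 11.75 to 12.08. A_30_P01027058 (21 C, with a run of 20 bases that are all C or T) ranged from 11.30 to 11.73. A_30_P01027833 (21 C) ranged from 10.89 to 11.61, A_30_P01031448 (38 C) from 10.80 to 11.75 and A_30_P01020570 (32 C) from 10.63 to 11.45. The ranges of A_30_P01020015 and A_30_P01027058 span under 0.5 log2 units over all 9 arrays, and their dose groups overlap.

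Many A_30 probes share a stretch of sequence, on the same or the opposite strand. Of the 15955, 4572 (28.7%) shared a run of at least 20 bases with another A_30 probe, 3907 of them with a probe of the opposite strand and 997 with one of the same strand. There were 2303 opposite-strand pairs, of which 101 were exact reverse complements over all 60 bases, and 717 same-strand pairs. Linked by shared runs on either strand, the series comes to 13318 sets, single probes included, and the largest set links 15 probes. Adjoining probes that share fewer than 20 bases are not linked, so this is not a count of separate stretches. There were 746 A_30 probes that share a run with a probe of another name series, some of which may also be among the 4572. Same-strand partners can read the same transcript, so counts of probes can exceed counts of separate targets. Opposite-strand partners read opposite strands, and the number of separate targets is not known here.

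Within the A_30 series, detection was compared between the members of a pair. Both members were detected on all 9 arrays in 185 of 717 same-strand pairs (25.8%) and both on none in 253. In 29 pairs (4.04%) a member was detected on all 9 and its partner on none. Of the 2303 opposite-strand pairs both members were detected on all 9 arrays in 193 (8.38%), both on none in 804, and 1 member on all 9 with its partner on none in 544 (23.6%). With probes of other name series the order for both members was the other way: both were detected on all 9 arrays in 124 of 582 same-strand pairs (21.3%) and in 174 of 454 opposite-strand pairs (38.3%). A member on all 9 with its partner on none was found in 42 (7.22%) and 63 (13.9%) of these.

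In those 544 opposite-strand pairs the detected member held more C than its partner in 447 (82.2%), fewer in 75 and equally many in 22. Its median count of C was 17, against 12 in the undetected partner. Since a C on a strand is a G on the other, the detected member was richer in G in only 101 and poorer in 416. For the 28 exact reverse complements split in this way, the member richer in C was detected in 23 and the poorer in 4.

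The 3 pairs printed first show this. A_30_P01027432 (21 C) ranged from 9.39 to 9.95 over the 9 arrays and its reverse complement A_30_P01028782 (12 C) was detected on none. A_30_P01021758 (16 C) ranged from 3.76 to 4.57, and A_30_P01027788 (11 C) was detected on none. A_30_P01030215 (21 C) was at 4.86, 4.32 and 4.49 in mock, 4.22, 3.99 and 3.72 at 6 Gy, and 4.15, 3.88 and 3.64 at 12 Gy, while A_30_P01029061 (12 C) was again detected on none. The mock values of A_30_P01030215 all lay above its irradiated values, a pattern seen after the pair was picked for its detection.

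Same-strand partners also moved together between arrays. In the 249 same-strand pairs with both members tested, the correlation of their levels over the 9 arrays had a median of 0.77, and it exceeded 0.5 in 186. The differences between 12 Gy and mock of both members correlated at 0.65 over these pairs, and those between 6 Gy and mock at 0.78. In the 287 opposite-strand pairs with both members tested the median correlation over arrays was 0.32, with 92 above 0.5, and the differences correlated at 0.33 and 0.31. The partners lie on the same arrays, so array effects are shared, which holds for both kinds of pair. Against probes of other name series, 143 same-strand pairs had a median correlation of 0.78 and 222 opposite-strand pairs 0.27.

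The brightest pairs include both behaviours. A_30_P01019815 and A_30_P01028562, which share 51 bases, correlated at 0.97 over the arrays, and both had their highest value on 6 Gy replicate 3 (7.53 and 7.69) and their lowest on mock replicate 3 (6.13 and 6.49). A_30_P01023029 and A_30_P01023888 (47 shared bases) correlated at 0.95, and A_30_P01027388 and A_30_P01028735 (37 shared bases) at 0.91. Among opposite-strand pairs A_30_P01020518 and A_30_P01021311 (55 bases) correlated at 0.86. A_30_P01018914 and A_30_P01019873 (43 bases) correlated at 0.89, and in both pairs every member was lowest on mock replicate 3. A_30_P01020276 and A_30_P01029802 (49 bases) were both detected on 9 arrays and did not vary together (r = 0.00). In that pair A_30_P01029802 carries a run of 25 bases that are all C or T.

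A base-for-base match to RefSeq sequence (GRCm38.p6) placed a small share of the probes. The windows searched run from 250 bases before to 50 bases after each listed gene start, with the miRNA hairpins besides. In all, 168 A_30 probes lay within the start windows of 104 genes, 79 on the strand of the gene alone, 85 on the opposite strand alone, and 4 on the strand of a gene and opposite to another. Of the 168, 57 (33.9%) were detected on all 9 arrays and 77 on none. By strand the detected shares were 27.8% (22 of 79) on the gene's strand and 37.6% (32 of 85) opposite to it. By the type of gene, 88 of the probes lay at starts of long non-coding RNA genes (28.4% detected on all 9 arrays) and 84 at starts of protein-coding genes (41.7%), with some probes in both. With 20 or more C, 28 of 36 were detected on all 9 arrays, and with 13 or fewer C, 3 of 48. A further 4 probes matched hairpins of miRNA genes, those of Mir8120 and Mir92-2 on the hairpin's strand and those of Mir101a and Mirlet7i opposite to it, and none was detected on any array.

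Of 17 long non-coding RNA genes listed by name, Gas5 and Tug1 were matched, each by several probes upstream of the start, on chromosomes 1 and 11. They are printed here with every C in capitals: 3 adjoining probes on the strand of Gas5 and an overlapping pair at Tug1, the first on the gene's strand and the second opposite.
A_30_P01032943: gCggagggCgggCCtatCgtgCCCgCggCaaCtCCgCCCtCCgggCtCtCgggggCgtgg
A_30_P01026655: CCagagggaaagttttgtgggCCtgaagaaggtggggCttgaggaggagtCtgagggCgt
A_30_P01029558: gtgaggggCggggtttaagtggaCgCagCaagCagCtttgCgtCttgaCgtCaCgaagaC
A_30_P01023757: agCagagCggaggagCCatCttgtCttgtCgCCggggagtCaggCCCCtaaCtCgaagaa
A_30_P01022792: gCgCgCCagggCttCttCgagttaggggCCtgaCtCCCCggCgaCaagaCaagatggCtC

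Gas5 hosts small nucleolar RNAs in its introns. Its 3 probes tile the strand of the gene at chr1:161034955-161035014, chr1:161035015-161035074 and chr1:161035075-161035134, which end 152, 92 and 32 bases before the annotated start. The first, A_30_P01032943 (22 C), was at 1.67, 1.58 and 1.89 in mock, 1.91, 1.99 and 1.88 at 6 Gy, and 1.83, 1.91 and 1.70 at 12 Gy, and was detected on all 9 arrays. Its groups overlap, and its difference of 0.10 ± 0.16 between 12 Gy and mock (SE, limma, adjusted p = 0.771) did not pass. A_30_P01026655 (7 C) was detected on 1 array, 6 Gy replicate 3, and A_30_P01029558 (12 C) on none. The first and second also lie before the start of the protein-coding gene Zbtb37, on the strand opposite to it, and end 106 and 166 bases before that start. The probes stand at neighbouring positions of the same strand and differ in detection. They lie upstream of the annotated start, so they do not measure the annotated Gas5 transcript from that start.

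Tug1 is a widely expressed long non-coding RNA. A_30_P01023757, on its strand at chr11:3648933-3648992, was at 0.68, 0.97 and 0.62 in mock, 0.79, 1.02 and 0.77 at 6 Gy, and 0.54, 0.80 and 0.64 at 12 Gy, with overlapping groups. A_30_P01022792, opposite to it at chr11:3648921-3648980 and sharing 48 bases, was at 1.21, 1.75 and 1.54 in mock, 0.98, 1.45 and 0.84 at 6 Gy, and 0.47, 0.73 and 0.90 at 12 Gy. The 12 Gy values of the opposite-strand probe all lay below mock, with a difference of -0.80 ± 0.23 (SE) that missed the threshold by limma (adjusted p = 0.149). With slide as a fixed block that difference was -0.57. The probe on the gene's strand differed by -0.10 ± 0.17 (SE, limma, adjusted p = 0.797). Whether the pair differs from each other in this was not tested.

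No A_30 probe passed an adjusted p under 0.05 by limma in any comparison, nor did any other probe of the array. The count was 0 of 4798, beside 0% of all 32004 tested probes, for each dose against mock, for 12 Gy against 6 Gy, and over the 3 groups together. The smallest adjusted p among A_30 probes was 0.128 at 12 Gy against mock, 0.189 at 6 Gy against mock, 0.9999 between the doses and 0.214 over the 3 groups. At an unadjusted p under 0.05 there were 713 A_30 probes at 12 Gy against mock (14.9%, beside 17.7% of all tested probes) and 658 at 6 Gy against mock (13.7%, beside 16.1%). Between the doses there were 194 (4.04%, beside 3.31%), and over the 3 groups 589 (12.3%, beside 14.3%).

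At 12 Gy against mock 309 A_30 probes (6.44%) read higher at an unadjusted p under 0.05, where the share over all tested probes was 11.9%. Lower were 404 (8.42%), beside 5.78% of all tested probes. The 12 Gy and mock arrays did not overlap for 440 A_30 probes that were higher (9.17%, beside 15.7% of all) and for 519 that were lower (10.8%, beside 7.31%). The median difference of the tested A_30 probes was -0.005 and that of all tested probes 0.12. Under the scaling to the median of probes detected on all 9 arrays, which moved the median of all probes by -0.12, the split of A_30 probes was 153 higher to 696 lower. Scaled to the 75th percentile of A_30 spots it was 391 to 293, after quantile normalization 241 to 595, and after normexp with an offset of 50 it was 341 to 307. For these and the other alternatives of each comparison, splits over all tested probes are not given here. The A_30 splits are therefore not read as particular to A_30. A scaling moves every probe of an array alike. The A_30 median minus that of all probes, -0.12 in the main setting, is therefore unchanged by either scaling. After quantile normalization that difference was -0.11, and after normexp with an offset of 50 it was -0.08. With a fixed slide term that difference was -0.265. Without 12 Gy replicate 3 it was -0.06, with a split of 348 higher to 314 lower. The difference was -0.01 with no filter on dim probes, and -0.129 with only probes detected on all 9 arrays. Without 12 Gy replicate 2 the number at an unadjusted p under 0.05 was 472, and a fixed slide term gave 293. These numbers too stand without those of all tested probes and are not read as particular to A_30.

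At 6 Gy against mock 364 A_30 probes (7.59%) read higher at an unadjusted p under 0.05, beside 11.5% of all tested probes, and 294 (6.13%) lower, beside 4.62%. The arrays did not overlap for 535 that were higher (11.2%, beside 16.9%) and 407 that were lower (8.48%, beside 6.36%). The medians were 0.08 for A_30 and 0.15 for all. The balance turned to 122 higher and 560 lower under the scaling to the median of detected probes, which moved the median of all probes by -0.16, and to 200 and 432 after quantile normalization, which moved it by -0.11. Splits over all tested probes under these settings are not given here. Within slide 2, which holds both groups, the A_30 median was -0.03 and that of all tested probes 0.11. Without mock replicate 1, which is alone on its slide, the A_30 medians were -0.02 at 6 Gy and -0.09 at 12 Gy. The medians of all tested probes were then 0.07 and 0.05.

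Between 12 Gy and 6 Gy 67 A_30 probes (1.40%) read higher at an unadjusted p under 0.05, beside 1.4% of all, and 127 (2.65%) lower, beside 1.91%. Non-overlapping arrays were counted for 116 higher (2.42%, beside 2.92%) and 380 lower (7.92%, beside 6.02%). The medians were -0.06 and -0.03. The A_30 median minus that of all probes, -0.04 here, turned to 0.02 without 12 Gy replicate 3 (79 higher and 82 lower), to 0.0083 without 6 Gy replicate 3 and to 0.0092 with array weights. Without 6 Gy replicate 3, which shares slide 3 with the 12 Gy arrays, the number at an unadjusted p under 0.05 was 475. It was 120 without 6 Gy replicate 1 and 82 without 6 Gy replicate 2. Counts over all tested probes under these settings are not given here, so these numbers are not read as particular to A_30.

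The difference from mock at 12 Gy was larger in tested probes with few C. The median was 0.20 in the 124 A_30 probes with 7 or fewer C, 0.13 in the 375 with 8 to 10, 0.04 in the 870 with 11 to 13, -0.02 in the 1343 with 14 to 16, -0.05 in the 1296 with 17 to 19 and -0.02 in the 790 with 20 or more. At 6 Gy the medians were 0.17, 0.13, 0.11, 0.07, 0.05 and 0.08. All other tested probes ran the same way at 12 Gy, from 0.29 with 7 or fewer C to 0.02 with 20 or more. Both comparisons share the mock arrays. A dim probe can enter the tested set through the group where it reads high. Of the 124 tested A_30 probes with 7 or fewer C, 76 were detected on all 9 arrays, against 740 of the 790 with 20 or more. Medians by C are not given here for probes detected on all 9 arrays alone, so what part this entry has was not tested.

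Among single probes, none of which passed, A_30_P01017713 read higher at 12 Gy. It was at -1.77, -0.9995 and -1.06 in mock, -0.10, -0.28 and 0.11 at 6 Gy, and 0.13, 0.13 and 0.43 at 12 Gy. The groups do not overlap, though only 1 of 3 mock arrays detected it, so its mock level is partly background. The difference from mock was 1.504 ± 0.23 (SE, limma, adjusted p = 0.128). A_30_P01023384, the probe poorest in C of those printed for dose (7 C), was at -0.80, -0.77 and -0.59 in mock, 0.03, -0.31 and 0.54 at 6 Gy, and 0.41, 0.80 and 0.54 at 12 Gy. It was detected on 2 of 3 mock arrays and on all irradiated arrays. Its difference at 12 Gy was 1.31 ± 0.23 (SE, limma, adjusted p = 0.128). With slide as a fixed block these 12 Gy differences were 0.95 and 0.58.

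A_30_P01020619 read lower at both doses and was detected on the mock arrays only. It was at 0.12, -0.22 and 0.12 in mock, -1.22, -1.17 and -1.64 at 6 Gy, and -1.74, -2.05 and -1.32 at 12 Gy. As the irradiated values were not well above background, the fold is a bound: at least 1.85-fold lower at 12 Gy (limma, adjusted p = 0.128) and at least 1.82-fold lower at 6 Gy (adjusted p = 0.189). Such a bound sets the brighter group's mean against, on each array of the dimmer group, the higher of the probe's own level and the lowest level among probes with every spot flagged well above background. Here and below, the adjusted p beside a bound is that of the limma difference between the group means. It does not test the bound, which carries no error. A_30_P01028569, the other probe with that detection pattern, was at -0.79, -0.62 and -0.43 in mock and between -2.52 and -1.15 after irradiation, at least 1.20-fold lower at 12 Gy (adjusted p = 0.134). A_30_P01028978, the reverse case, was between -1.62 and -0.96 in mock and between -0.79 and -0.32 on the 6 irradiated arrays, at least 1.21-fold higher at 12 Gy (adjusted p = 0.138).

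A_30_P01026494 separated 12 Gy from both other groups. It was at -0.66, -0.32 and -0.56 in mock and -0.68, -0.33 and -1.08 at 6 Gy, and at -1.67, -1.82 and -2.09 at 12 Gy, where no array detected it. In mock 2 of 3 arrays detected it, and at 6 Gy all 3. It was at least 1.14-fold lower than at 6 Gy (limma, adjusted p = 0.9999). Against mock the same reckoning gave 1.29-fold lower (limma, adjusted p = 0.128). As its mock level is partly background, that value is not a strict bound. A_30_P01031253 had the same order with detection on all 9 arrays: 0.24, 0.40 and 0.36 in mock, 0.28, 0.53 and 0.04 at 6 Gy, and -0.44, -0.52 and -0.56 at 12 Gy. Its difference from 6 Gy was -0.79 ± 0.17 (SE, limma, adjusted p = 0.9999), and with slide as a fixed block -0.54. A partner on the opposite strand, A_30_P01029205 (57 shared bases), was detected on 9 arrays as well and was at 2.58, 2.67 and 2.16 at 6 Gy and 2.31, 2.12 and 2.00 at 12 Gy, which overlap.

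A_30_P01022610 showed the widest step between mock and 6 Gy among these probes. It was at -2.25, -2.73 and -2.73 in mock, where no array detected it, 1.24, 1.02 and 2.78 at 6 Gy, and 1.81, -1.09 and 0.47 at 12 Gy, where 2 of 3 did. It was at least 5.39-fold higher at 6 Gy (limma, adjusted p = 0.189). Its opposite-strand partner A_30_P01030326, with nearly the same count of C (15 against 16), was detected on no array and lay between -2.59 and -1.22. A_30_P01024220 was at 3.21, 1.84 and 2.87 in mock, 4.64, 4.55 and 5.24 at 6 Gy, and 4.98, 4.07 and 4.44 at 12 Gy, all detected. Its difference at 6 Gy was 2.17 ± 0.37 (SE, adjusted p = 0.189), and with slide as a fixed block 2.24.

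A_30_P01030627 read lower at 6 Gy, at -1.41, -2.12 and -2.15 against -0.29, -0.38 and -0.40 in mock, a difference of -1.54 ± 0.23 (SE, limma, adjusted p = 0.189), with only 1 of 3 arrays at 6 Gy detecting it, so that its 6 Gy level is partly background. Between the doses A_30_P01029773 was at -0.47, -1.001 and -1.31 at 6 Gy and 0.47, 0.49 and 0.61 at 12 Gy, a difference of 1.45 ± 0.26 (SE, adjusted p = 0.9999). It was detected on 2 of 3 arrays at 6 Gy. Its mock values of -0.50, 0.11 and 0.31 lay between and overlapped 6 Gy. A_30_P01019196 was detected on no array at 6 Gy and on 3 at 12 Gy, at least 1.01-fold higher (adjusted p = 0.9999).

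The widest range over the arrays did not follow dose. A_30_P01021588 was at -0.69, 3.35 and 3.04 in mock, 3.31, 1.96 and -2.72 at 6 Gy, and -3.14, -3.05 and 4.99 at 12 Gy, a range of 8.13. It was high on mock replicates 2 and 3, 6 Gy replicates 1 and 2 and 12 Gy replicate 3, and low on the other 4 arrays. A_30_P01028007 was high and low on the same arrays, with -0.01, 3.23 and 2.87, then 3.54, 1.95 and -0.91, then -1.29, -2.11 and 4.87 (r = 0.99 with the first over 9 arrays).

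The custom probe that shares 37 bases with A_30_P01028007 was at -1.26, 3.12 and 2.72 in mock, 3.41, 1.63 and -2.72 at 6 Gy, and -2.49, -3.05 and 4.68 at 12 Gy. The next A_30 probe by range, A_30_P01028827, named after its values were seen, was highest on 12 Gy replicate 3 as well, at 5.24 (r = 0.99). It ends in the bases with which that custom probe begins, a run shorter than the 20 bases sought. These probes may therefore not be independent. In all, 3 tested A_30 probes and 13 other tested probes correlated at 0.95 or above with A_30_P01021588 over the 9 arrays. The low arrays are slide 1 and, on slide 3, all but 12 Gy replicate 3. The part of dose or slide in this was not tested. A range of at least 4 log2 units was found for 12 tested A_30 probes (0.25%), beside 0.778% of all tested probes.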

How the data were processed

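RNA was labelled with a single dye, per the labels' protocols. Spot values come from Agilent Feature Extraction 10.7.1.1, per the submitters' processing notes. The deposited scanner files hold intensity per spot on a linear scale, with no normalization between arrays. The authors' deposited table holds log2 values that match quantile-normalized intensity and served as an alternative; how it was made is not given in the sources used here.

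From these files, the log2 processed intensity of each spot was set against the array's own 75th percentile over its 143286 non-control spots. Outlier-flagged spot values (183, of them 5 in A_30) were dropped, and the remaining spots averaged per probe. No A_30 spot was saturated. Probes detected on all 3 arrays of at least 1 group were fitted with limma 3.58.1 in R 4.3.3 (lmFit and eBayes, a mean per group over 9 arrays), with Benjamini-Hochberg adjustment over all 32004. The number of arrays limits the precision.

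Shared runs of at least 20 bases were sought among all non-control probes, and exact matches in RefSeq start windows and hairpins (GRCm38.p6). Named probes were those past the threshold or, with none, the 2 smallest p per direction and comparison. To these came the 5 brightest, those detected only in mock or only after irradiation, the 2 of widest range, the brightest overlapping pairs and the printed reference matches. The A_30 members follow from their names alone. The choice of this name series and of the lists was made with earlier results of these data known. Alternatives covered background correction, scaling, filters, blocks, weights and leaving out arrays.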

Additional observations from a re-analysis of the deposited data

How the results depend on the processing

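The number of A_30 probes past the adjusted threshold stayed at 0 in every comparison under all alternatives but array weights. With weights estimated per array, 1624 were called at 12 Gy against mock, 592 at 6 Gy against mock, 21 between the doses and 1530 over the 3 groups. Those weights ran from 0.291 (mock replicate 1) to 5.77 (12 Gy replicate 2), so single arrays dominate that fit. Shares over all tested probes are not given for the alternatives in this section. Their counts are therefore not read as particular to A_30. At an unadjusted p under 0.05 weights gave 2178, 1372 and 1198 of the 4798 tested A_30 probes. For 12 Gy against mock the number was 1126 with no filter on dim probes, 293 with slide as a fixed block and 334 with slide as a random block. Between the doses it was 306, 112 with normexp and an offset of 50, and 114 with slide as a random block. Leaving out 1 array gave 472 to 955 at 12 Gy, 488 to 800 at 6 Gy and 82 to 475 between the doses. With the replicate number as a replicate block it was 653, 595 and 149. The numbers share no stated origin, and deviations of same-numbered arrays correlated at -0.305 to 0.183, so they were not taken to pair samples; no call changed.

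The A_30 median difference depended on the scaling. At 12 Gy against mock it was -0.12 when scaled to the median of detected probes, -0.0841 after quantile normalization, -0.0840 in the authors' deposited values, -0.0751 with no filter on dim probes and -0.12 with slide fixed, and -0.0901 to 0.0587 when 1 array was left out. At 6 Gy it was -0.0796, -0.0240, -0.0237, -0.0415 and -0.0257 under the same settings, -0.0257 within the slide that holds both groups, 0.0162 with array weights and -0.0232 to 0.11 when 1 array was left out. Between the doses it ran from -0.09 to -0.01 when 1 array was left out. Within the slide that holds both groups, the 6 Gy median of all tested probes was 0.114. The cause of the moves of the A_30 median was not tested. All named differences kept their direction except those of probes within their error: A_30_P01023757 ran from -0.167 (without 12 Gy replicate 2) to 0.0121 (without mock replicate 2) when 1 array was left out and was as low as -0.213 over all its alternatives, and A_30_P01032943 was -0.0177 when scaled to detected probes, -0.0145 after quantile normalization and -0.0143 in the authors' values. Of 403 alternative values of named probes 15 passed the threshold, all with array weights.

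Requiring every spot to be flagged lowered the detected share to 26.5%, 26.8% and 26.7% in mock, 6 Gy and 12 Gy. The less strict flag for a positive and significant signal raised it to 69.2%, 67.3% and 67.9%, and leaving out 1 array gave 29.2% to 33.2%, 29.6% to 33.6% and 31.1% to 31.8%. With at least 30 shared bases there were 494 same-strand and 1814 opposite-strand pairs. With 3 arrays per group, smaller differences may be undetectable, and dim probes have only a bound.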
